A study of Mus musculus with 14 samples.

Results

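Phase II detoxification enzymes were followed across 12 mammary tumours of Brg1+/- mice. They were taken as all genes on the array whose annotated symbol starts with Gsta, Gstm, Gstp, Gstt, Gsto, Gstk, Gstz, Mgst, Sult or Ugt, with Gstcd left out. This gave 46 genes on 58 probes, of 16879 genes on the array, and all 46 were among the 16877 genes that could be tested. They comprise 20 cytosolic or mitochondrial glutathione S-transferases, 3 membrane-bound ones (Mgst), 12 sulfotransferases (Sult) and 11 UDP-glycosyltransferases (Ugt).

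Every tumour carried the same genotype, heterozygous for Brg1 (Smarca4), whose product is the motor ATPase of SWI/SNF chromatin remodellers, and no tumour of another genotype and no normal tissue was analysed here. Tumour RNA in Cy5 was hybridised on 14 two-colour arrays together with Cy3-labelled RNA of a common mouse reference, so each value is a log2 ratio of tumour over reference. T172 and T284 had 2 arrays each, the second marked biorep, and the other 10 tumours had 1. The labels do not say whether each tumour came from a separate animal, what a biorep repeats or what the word MIXED in the sample names means, so p-values measure only the spread among these samples. Whole tumours were measured in bulk, and fewer cells of a type and less RNA per cell cannot be told apart. What the reference was made of is not stated in the labels, so a ratio is no expression level and ratios of different genes cannot be ranked against each other as levels. A dye effect on a gene cancels in differences between tumours only if it was the same on all arrays, which was not tested. T176 stood apart over the whole array, with 643 genes called against the other 11. Its luminal markers were at -5.01 from the 12-tumour mean, against -0.43 to 1.46 in the other 11 (6 of 6 called between tumours), and its fibroblast markers at 3.81, against -1.42 to 1.34 (4 of 4 called), so results that rest on T176 are given with and without it.

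Phase II enzymes attach a polar group to a reactive or lipid-soluble molecule so that it can be exported from the cell. Glutathione S-transferases use glutathione and also reduce peroxides, sulfotransferases use the activated sulfate PAPS, and UDP-glucuronosyltransferases use UDP-glucuronate. Several are known targets of the stress-responsive factor Nrf2 (Nfe2l2) or of the dioxin receptor (Ahr), and in breast tissue sulfation and glucuronidation are routes by which estrogens are inactivated.

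Among the genes described below with an SD over tumours above 1, 4 had a RefSeq promoter window that held one of the 3 motifs searched, and these windows are shown because they are the sequences next to the most variable members. Each runs from 250 bases before to 50 bases after the transcription start, 5′ to 3′ on the gene's strand, with the motif in capitals (RefSeq, GRCm38.p6). Gsta1 lies at chr9:78230419-78230718 on the plus strand with GCGTG, the core of the xenobiotic response element. Gsta3 lies at chr1:21240335-21240634 on the plus strand with TGACATTGC, a match to TGACNNNGC, the core of the antioxidant response element bound by Nrf2. Mgst1 lies at chr6:138140277-138140576 on the plus strand, 1 of 2 start sites listed, with TGACNNNGC read on the opposite strand. Sult1e1 lies at chr5:87591562-87591861 on the minus strand with TGACCT, a hexamer bound by nuclear receptors.
Gsta1: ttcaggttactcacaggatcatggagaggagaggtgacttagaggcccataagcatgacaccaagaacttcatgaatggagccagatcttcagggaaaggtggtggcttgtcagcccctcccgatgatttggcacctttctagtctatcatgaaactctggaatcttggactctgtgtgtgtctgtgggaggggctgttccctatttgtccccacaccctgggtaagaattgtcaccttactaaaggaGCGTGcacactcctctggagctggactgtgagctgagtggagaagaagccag
Gsta3: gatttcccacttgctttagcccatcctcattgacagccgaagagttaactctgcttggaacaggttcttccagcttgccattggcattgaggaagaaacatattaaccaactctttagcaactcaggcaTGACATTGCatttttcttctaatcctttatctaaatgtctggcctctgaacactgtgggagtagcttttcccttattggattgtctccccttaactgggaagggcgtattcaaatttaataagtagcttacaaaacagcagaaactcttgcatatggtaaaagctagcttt
Mgst1: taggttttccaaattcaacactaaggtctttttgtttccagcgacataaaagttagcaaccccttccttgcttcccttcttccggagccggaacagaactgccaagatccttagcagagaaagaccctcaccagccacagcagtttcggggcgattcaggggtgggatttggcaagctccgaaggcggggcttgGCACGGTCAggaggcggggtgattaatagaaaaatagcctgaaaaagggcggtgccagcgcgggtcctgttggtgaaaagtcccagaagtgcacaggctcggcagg
Sult1e1: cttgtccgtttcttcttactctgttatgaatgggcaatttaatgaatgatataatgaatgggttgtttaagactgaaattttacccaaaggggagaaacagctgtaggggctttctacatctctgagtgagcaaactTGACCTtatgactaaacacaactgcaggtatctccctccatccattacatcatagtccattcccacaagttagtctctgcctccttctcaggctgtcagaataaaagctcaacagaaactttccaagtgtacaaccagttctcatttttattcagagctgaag

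Counted from the start site, the matches begin at -2 in Gsta1, -121 in Gsta3, -56 in Mgst1 and -113 in Sult1e1. RefSeq windows were matched for 41 of the 46 members, 53 windows in all, and both strands were searched. TGACNNNGC was found in 4 of the 53, those of Gsta3, Mgst1, Gstm5 and Gstm7, against 12.4% of all 32851 promoters. GCGTG was found in 12 of 53, against 32.4%, and TGACCT in 8 of 53, against 16.3%. In the Gstm5 window the TGACNNNGC match overlaps a GCGTG match on the other strand. The windows of Gsto1, Mgst2, Gstt3 and Gstm2 held none of these letters, and Gsta4, Gstt2, Sult4a1, Ugt1a6b and Ugt3a2 had no window in the table. A match is a run of letters and was not tested as a binding site.

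Glutathione S-transferases made up most of the phase II genes that differed between tumours, led by Gsto1 and the alpha class. Of the 46 members 15, or 32.6%, differed between tumours (limma moderated F-test over 12 tumours and 14 arrays, Benjamini-Hochberg adjusted p under 0.05 over all genes), where 18.4% of all genes tested did. At an adjusted p under 0.01 the count was 9 members, against 9.42% of all genes. Without T176 it was 13 members at the threshold of 0.05, against 14.9% of all genes. With a term for the second arrays in the fit, 26 members were called, against 43.0% of all genes. That term uses up part of the little information on the spread within a tumour, so p-values of that fit lean still more on limma's prior. In it the adjusted F-test p of Gsta1 was 7.3e-15, against 0.000103 without the term. Values given below with this term carry that limit. The called members were 11 of 23 glutathione S-transferases, 2 of 12 sulfotransferases (Sult1e1 and Sult1a1) and 2 of 11 UDP-glycosyltransferases (Ugt1a6b and Ugt2b34); whether the families differ in this share was not tested. By class, 3 of 3 alpha, 2 of 7 mu, 0 of 2 pi, 2 of 4 theta, 1 of 2 omega, 1 of 1 kappa, 0 of 1 zeta and 2 of 3 membrane-bound enzymes were called. The median SD over tumours was 0.46 for the members and 0.386 for all genes tested, and 10 members had an SD of at least 1. The spread within a tumour, estimated with limma's prior from the repeated arrays, had a median SD of 0.331 for the members and 0.306 for all genes.

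**Figure D1:**
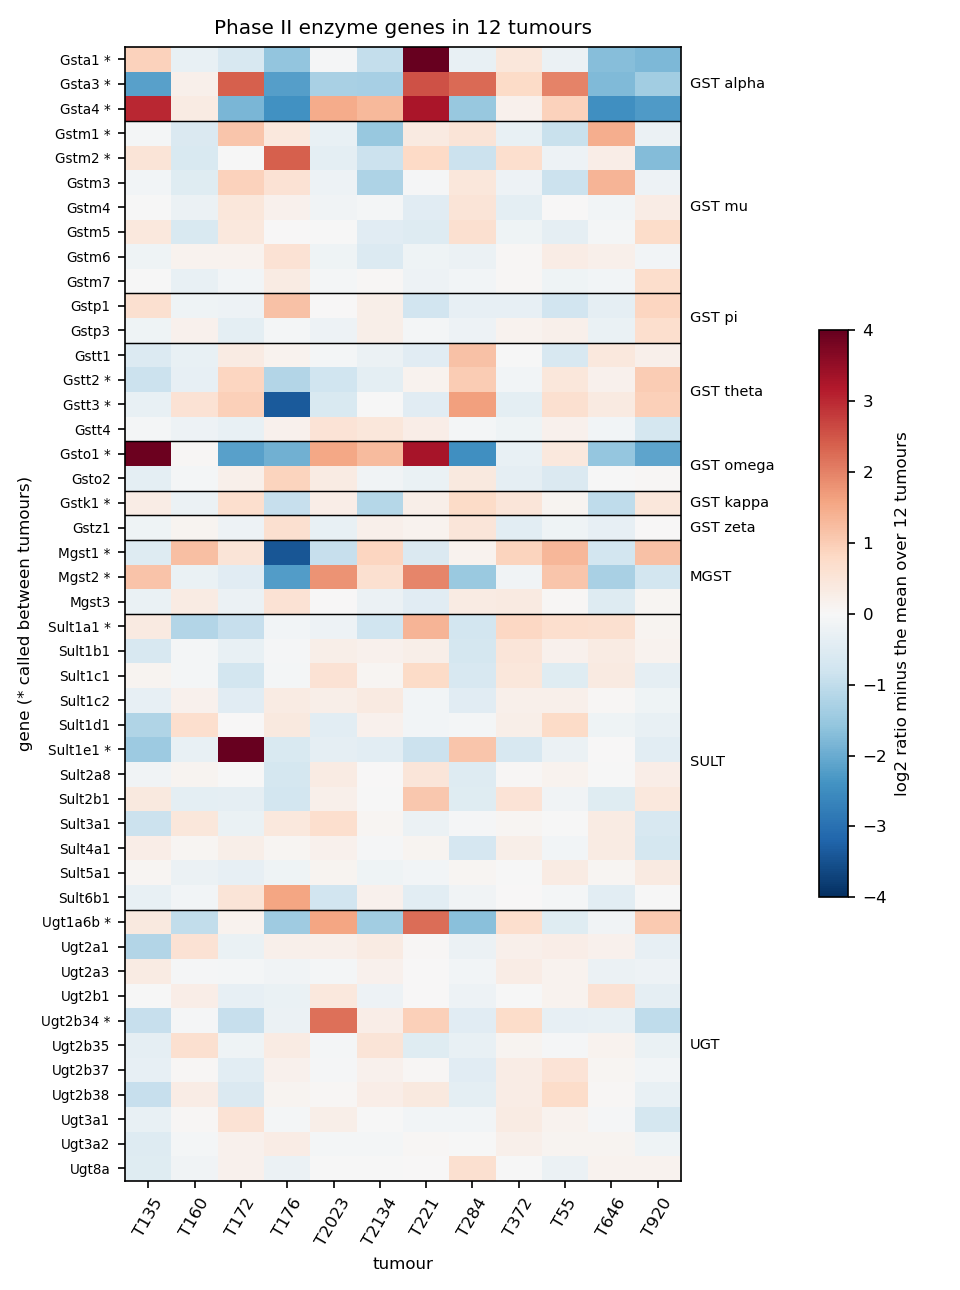
Log2 ratio of each of the 46 genes (rows, grouped by family, asterisks marking the 15 called between tumours) minus its mean over the 12 tumours (columns), with the colour scale ending at -4 and 4. Gsta1 in T221 and Sult1e1 in T172 lie beyond the scale, and T176 is low for Mgst1 and Gstt3.

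**Figure D2:**
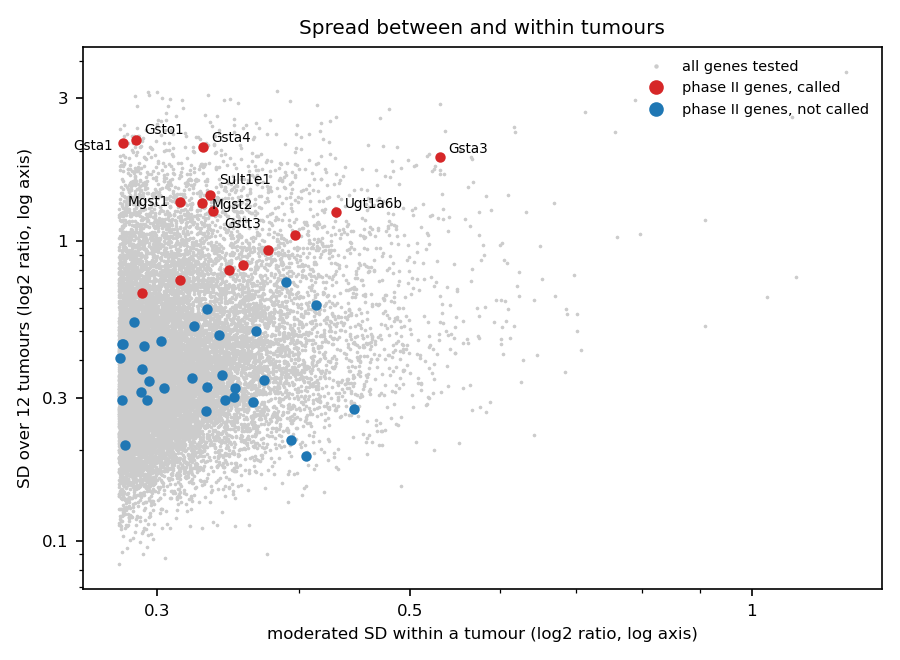
SD over 12 tumours (vertical, log axis) against limma's moderated SD within a tumour (horizontal, log axis), both of log2 ratios, for all genes tested (grey), the 15 called members (red) and the 31 others (blue). Gsto1, Gsta1, Gsta4 and Gsta3 have the largest SDs over tumours of the members, 2.17 to 1.91, and Gsta3 has a larger SD within a tumour (0.532) than the other 3 (0.28 to 0.329).

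Gsto1, the omega-class enzyme that reduces dehydroascorbate and methylated arsenic, lies at chr19:47854973-47864790 (GRCm38.p6, as for all gene positions here). Its log2 ratio was 3.70 in T135, 3.09 in T221, 1.31 in T2023, 1.04 in T2134, 0.20 in T55, -0.18 in T160, -0.51 in T372, -1.78 in T646, -2.15 in T176, -2.33 in T920, -2.39 in T172 and -2.66 in T284. T135 and T221 stood highest, and T646, T176, T920, T172 and T284 lay together at the low end, apart from the other 7. The mean was -0.22 ± 2.17 (SD, n = 12 tumours), the SD within a tumour 0.287, and the adjusted p of the F-test 7.82e-05. Its neighbour Gsto2, at chr19:47865438-47886308, ranged only from -0.28 in T55 to 1.20 in T176 and did not pass (adjusted p = 0.268).

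Gsta4, the alpha-class enzyme specialised on hydroxyalkenals from lipid peroxidation, lies at chr9:78191966-78209349. It had 4.22 in T221, 3.96 in T135, 2.44 in T2023, 2.25 in T2134, 1.88 in T55, 1.28 in T160, 1.13 in T372, -0.57 in T284, -0.89 in T172, -1.31 in T920, -1.47 in T176 and -1.49 in T646. The 5 lowest tumours were those of Gsto1, and T221 and T135 again stood highest. The mean was 0.95 ± 2.07 (SD, n = 12), with an SD within a tumour of 0.329 and an adjusted F-test p of 0.000175. The array carries 10 probes for Gsta4, and on a single array they had SDs between 0.0855 and 0.363 (median 0.206), small beside the SD over tumours. The means of the 10 probes over all tumours lay between 0.74 and 1.17.

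**Figure D3:**
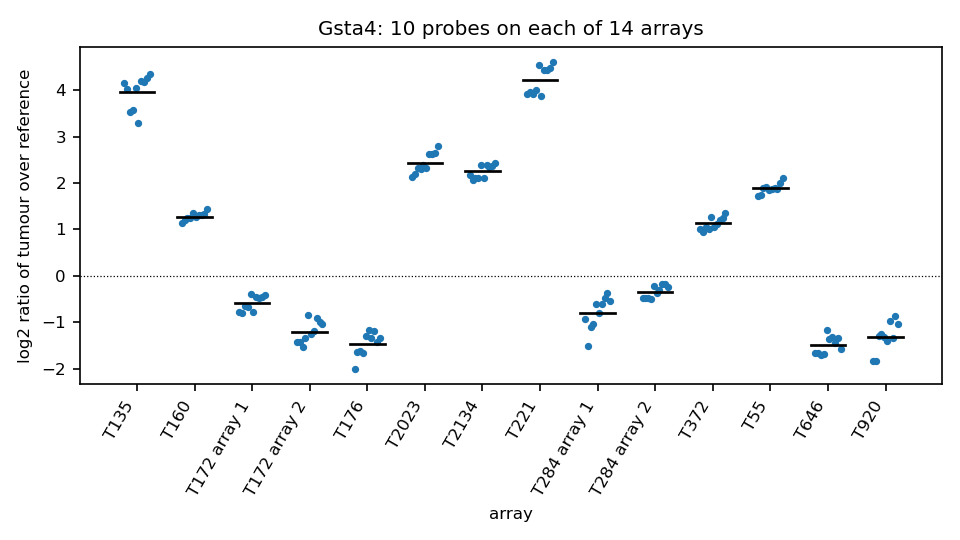
Log2 ratio of Gsta4 over the reference (vertical) for each of 10 probes (points) on each of 14 arrays (horizontal), with the array mean as a black line. The array means run from -1.49 in T646 to 4.22 in T221, and the 2 arrays of T172 (-0.58 and -1.20) and of T284 (-0.79 and -0.34) stay among the low tumours.

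Mgst2, a membrane-bound enzyme with leukotriene C synthase activity, lies at chr3:51636912-51682675. It had 1.96 in T221, 1.80 in T2023, 1.16 in T135, 1.11 in T55, 0.65 in T2134, -0.13 in T372, -0.25 in T160, -0.45 in T172, -0.74 in T920, -1.30 in T646, -1.49 in T284 and -2.24 in T176. The 5 lowest tumours were again T172, T920, T646, T284 and T176, but here the gap to the next tumour was small, -0.45 against -0.25. The mean was 0.01 ± 1.34 (SD, n = 12), with an SD within a tumour of 0.328 and an adjusted F-test p of 0.00152.

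The mean of 4 markers of squamous epithelium moved with these 3 genes. All 4 of Krt16, Sprr1a, Lgals7 and Klk7 were called between tumours, and their mean difference from the 12-tumour mean was 2.99 in T2023, 2.87 in T372, 2.63 in T221, 1.88 in T135, 0.73 in T2134, 0.30 in T160, 0.14 in T55, -1.27 in T176, -2.11 in T920, -2.41 in T646, -2.66 in T172 and -3.07 in T284. By this mean the same 5 tumours were lowest, while T372, next to highest for the markers, was sixth lowest for Gsto1 and for Gsta4. Taken singly, Sprr1a and Klk7 had the same 5 lowest tumours, but Krt16 and Lgals7 did not. Krt16 was 2.33 in T176, above its 12-tumour mean of 1.96, and Lgals7 was -0.47 in T920, against a mean of -0.52. The basal markers Krt5, Krt14 and Trp63, 3 of 3 called, spanned -2.87 in T172 to 2.95 in T2023. By their mean T55 (-0.61) lay below T920 (-0.56), so their 5 lowest tumours were not the same 5. The part of squamous or basal cells in the values of Gsto1, Gsta4 and Mgst2 was not tested.

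**Figure D4:**
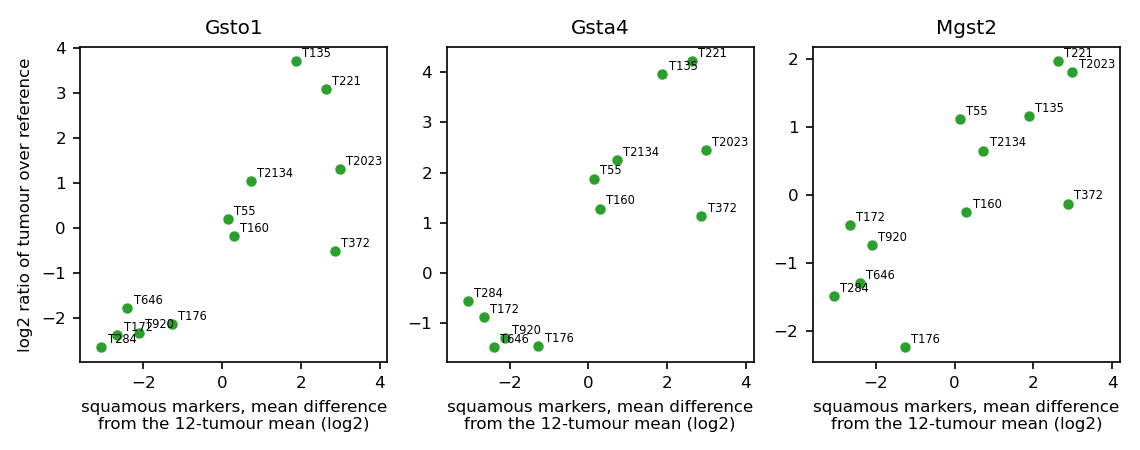
Log2 ratio of Gsto1, Gsta4 and Mgst2 (vertical, 1 panel each) against the mean difference of 4 squamous markers from their 12-tumour mean (horizontal, log2), 1 point per tumour. T172, T176, T284, T646 and T920 lie at the lower left of each panel, and T372 lies below the other tumours with high markers.

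Gsta1 stood apart in a single tumour. This alpha-class enzyme, which conjugates electrophiles and reduces organic hydroperoxides, lies at chr9:78230669-78242683, next to Gsta4. Its log2 ratio was 3.80 in T221, against -1.44 in T135, -1.92 in T372, -2.42 in T2023, -2.61 in T55, -2.66 in T284, -2.67 in T160, -3.0 in T172, -3.31 in T2134, -3.96 in T176, -4.08 in T646 and -4.16 in T920. T221 did not overlap the other 11, all of which lay below the reference. Set against their mean, T221 was higher by 6.73 ± 0.83 (log2, SE; limma, 1 tumour against 11, adjusted p = 0.00574), in a comparison in which 0.113% of all genes were called higher. The F-test over all tumours gave an adjusted p of 0.000103, and 0.00941 without T221.

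In T221 adipocyte markers were also highest on average, at 2.06 above their 12-tumour mean, against -0.84 to 0.77 in the other 11 (4 of 5 markers called between tumours), as were endothelial markers, at 1.07 against -0.70 to 0.63 (3 of 5 called). The markers not called did not share this. Lep was -0.26 in T221 against a 12-tumour mean of 0.04, and Cdh5 was -0.03 against 0.15. Pecam1 was -0.44 in T221, below T646 (0.30) and T176 (-0.31). The part of adipocytes and endothelial cells in the Gsta1 value was not tested. The hepatocyte markers Alb, Apoa1, Ttr and Fabp1, 0 of 4 called, had a mean log2 ratio of -5.09, and T221 stood at 0.37 from their 12-tumour mean, against -0.37 to 0.21 in the other 11.

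Gsta3, the alpha-class enzyme known in mouse for conjugating the aflatoxin epoxide, lies at chr1:21240565-21265575 and was below the reference in all 12 tumours. It had -1.35 in T221, -1.51 in T172, -1.64 in T284, -1.93 in T55, -3.14 in T372, -3.71 in T160, -5.19 in T2023, -5.22 in T2134, -5.28 in T920, -5.66 in T646, -6.09 in T135 and -6.12 in T176. The tumours were spread along this range in another order than for Gsta4, with T135 near the bottom and T172 and T284 near the top. The adjusted F-test p was 0.00238, and the 2 arrays of T172 differed widely, with -0.54 and -2.48.

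Of the other membrane-bound enzymes, Mgst1, a glutathione transferase and peroxidase of the endoplasmic reticulum and outer mitochondrial membrane (chr6:138140527-138156755), was low in 1 tumour. It had -2.78 in T176, against 1.99 in T55, 1.86 in T160, 1.82 in T920, 1.55 in T372, 1.51 in T2134, 1.17 in T172, 0.78 in T284, 0.12 in T135, 0.08 in T221, -0.08 in T646 and -0.26 in T2023. T176 did not overlap the others, and its difference from their mean was -3.73 ± 0.81 (log2, SE; limma, 1 tumour against 11, adjusted p = 0.0185), where 1.34% of all genes were called lower in T176. Among the other 11 Mgst1 still passed the F-test (adjusted p = 0.0237, and 0.00147 with T176). Mgst3, related to Mgst2, lay between -2.16 and -1.07 in all tumours and did not pass the F-test (adjusted p = 0.579).

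Gstt3, a theta-class enzyme (chr10:75774117-75781422), followed the same division. It had -1.73 in T176, against 3.26 in T284, 2.58 in T172, 2.56 in T920, 2.27 in T55, 2.19 in T160, 1.96 in T646, 1.61 in T2134, 1.31 in T135, 1.22 in T372, 1.16 in T221 and 0.99 in T2023. The difference of T176 from the mean of the other 11 was -3.65 ± 0.69 (log2, SE; limma adjusted p = 0.0077). Without T176 Gstt3 also passed the F-test (adjusted p = 0.0364, and 0.00209 with it). Gstt2, on the same stretch of chromosome 10, ranged from -1.54 in T176 to 0.64 in T284 and T920 (F-test adjusted p = 0.0237). Gstt1, which acts on small halogenated compounds, ranged from -0.53 in T55 to 1.27 in T284 and did not pass (adjusted p = 0.199, and 0.000544 with the term for the second arrays).

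The mu class, which conjugates a wide range of epoxides, lies in a cluster on chromosome 3, and 2 of its 7 genes were called. Gstm2 had 1.14 in T176, against -2.97 in T920 to -0.43 in T221 in the other 11 (F-test adjusted p = 0.0197), and its 2 arrays of T172 had -0.67 and -1.83. Only T176 lay above the reference, but its difference from the mean of the other 11, 2.6 ± 0.73 (log2, SE), was not called. Without T176 the call was lost (adjusted p = 0.103). Gstm1 ranged from -2.42 in T2134 to 0.54 in T646 (adjusted p = 0.0301), and its call was lost without T2134 (0.0642). Gstm3 ranged from -1.94 in T2134 to 0.64 in T646, outside the threshold (adjusted p = 0.0878, and 3.66e-05 with the term for the second arrays). Gstm1 and Gstm3 differed by only -0.47 to 0.20 within a tumour. They are close paralogs, and signal shared between their probes cannot be told apart from a common change, so both are uncertain.

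Gstp1, the pi-class enzyme widely found in epithelia and tumours, did not pass the F-test (adjusted p = 0.282), but did with the term for the second arrays (0.00127). It ranged from -0.02 in T221 to 1.93 in T176, with a mean of 0.76 ± 0.61 (SD, n = 12), and was above the reference in 10 of 12 tumours. Gstp3, at chr19:4057470-4059605, averaged -0.11 (adjusted p = 0.835), and Gstz1, which isomerises maleylacetoacetate in tyrosine breakdown, averaged -0.61 (adjusted p = 0.693). Gstk1, the kappa-class enzyme of mitochondria and peroxisomes, passed with -1.36 in T2134, -1.23 in T646 and -1.15 in T176, against -0.45 to 0.53 in the other 9 (adjusted p = 0.0307). The call was lost without T176, T2134 or T646 in turn (adjusted p = 0.0509, 0.058 and 0.0505).

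**Figure D5:**
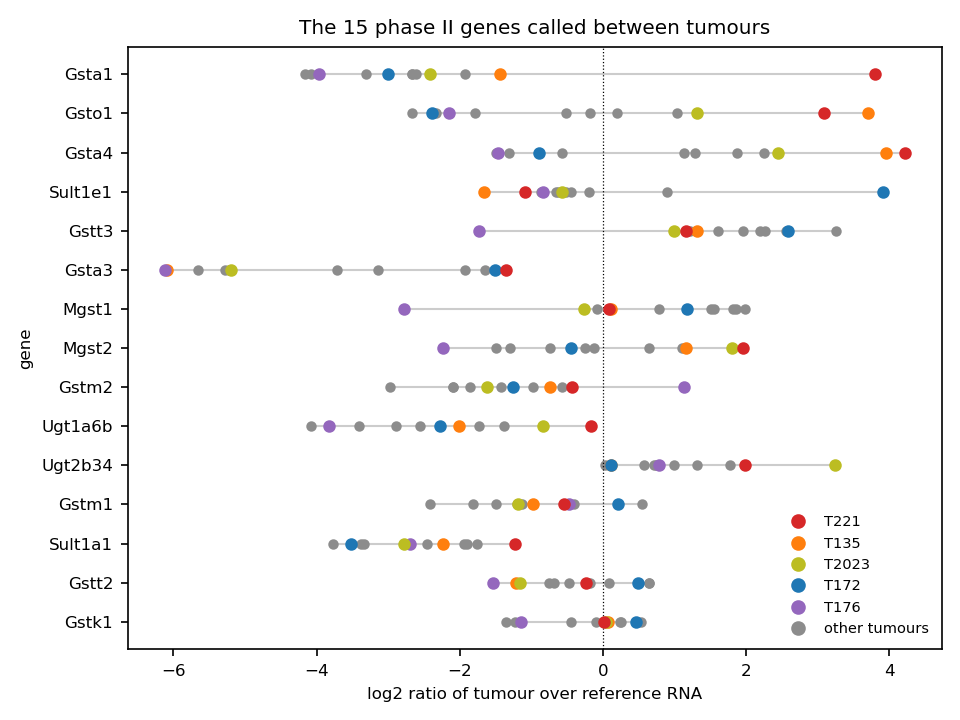
Log2 ratio of tumour over reference (horizontal) for the 15 called genes (rows, ordered by their range over tumours), 1 point per tumour, with T221, T135, T2023, T172 and T176 coloured. T221 lies alone on the right for Gsta1 (3.80), T172 for Sult1e1 (3.91) and T176 for Gstm2 (1.14), and T176 lies alone on the left for Gstt3 (-1.73) and Mgst1 (-2.78).

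Among sulfotransferases, Sult1e1, the estrogen sulfotransferase (chr5:87575968-87591611), stood out in 1 tumour. It had 3.91 in T172, against 0.90 in T284, -0.20 in T646, -0.44 in T55, -0.52 in T160, -0.57 in T2023, -0.63 in T920, -0.65 in T2134, -0.83 in T176, -0.87 in T372, -1.09 in T221 and -1.66 in T135. Both arrays of T172 were high, with 4.16 and 3.66, and both of T284 were above the reference, with 0.58 and 1.22. T172 was higher than the mean of the other 11 by 4.51 ± 0.61 (log2, SE; limma adjusted p = 0.0102), where 0.0533% of all genes were called higher in T172, and the F-test gave an adjusted p of 0.000407, and 0.00906 without T172. In T172 the salivary gland markers stood on average at 1.22 from their 12-tumour mean and in T2134 at 2.74, against -1.10 to 0.56 in the other 10 (4 of 6 markers called). The value of T172 came mainly from Dcpp1, with 2.04 against a 12-tumour mean of -3.67, and Aqp5, with 3.78 against 1.49. Aqp5 was higher still in T646 (4.44) and T920 (3.92) and close in T284 (3.75). Of the 6 markers only Dcpp1 had its top value in T172. Amy1 (-3.16 against -2.50), Bpifa2 (-3.58 against -3.55), Smr2 (0.14 against 0.03) and Lpo (-0.13 against -0.07) were near or below their means. Sult1e1 was -0.65 in T2134, and the part of such cells in T172 was not tested.

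Sult1a1, which sulfates simple phenols, was below the reference in every tumour, from -3.77 in T160 to -1.23 in T221 (F-test adjusted p = 0.031), and lost its call without T221 (adjusted p = 0.0607). Sult2b1, which sulfates cholesterol and hydroxysteroids and is known from skin, was above the reference in every tumour, from 0.01 in T176 to 1.82 in T221, and did not pass (adjusted p = 0.101, and 0.00411 with the term for the second arrays). Sult6b1 had 1.55 in T176, against -0.79 to 0.49 in the other 11. It was higher in T176 by 1.72 ± 0.36 (log2, SE; limma, 1 tumour against 11, adjusted p = 0.0149), where 2.47% of all genes were called higher, but it did not pass the F-test (adjusted p = 0.132, and 0.00248 with that term).

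Of the enzymes that use UDP-sugars, 2 of 11 were called. Ugt1a6b, which glucuronidates planar phenols (chr1:88103257-88218998), had -0.17 in T221 and -0.83 in T2023 at the top and -4.08 in T284, -3.83 in T176 and -3.82 in T2134 at the bottom (F-test adjusted p = 0.00925). The 2 arrays of T172 had -1.59 and -2.95. The gene shares its downstream exons with the other Ugt1a genes, so the probe may read several of them. Ugt2b34, in the Ugt2 cluster of chromosome 5, had 3.24 in T2023, against 0.03 in T920 to 1.98 in T221 in the other 11 (F-test adjusted p = 0.0255), and was no longer called without T2023 (adjusted p = 0.142). The difference of T2023 from the mean of the other 11, 2.41 ± 0.63 (log2, SE), was not called.

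Across the 12 comparisons of 1 tumour with the other 11, members were called in 5 of 552 combinations of gene and tumour, or 0.906%, against 0.394% of 202524 over all genes. Of these, 3 were higher (Gsta1 in T221, Sult1e1 in T172, Sult6b1 in T176) and 2 were lower (Gstt3 and Mgst1 in T176). Without T176, 2 members and 159 genes were called, against 797 genes with it. The part of fewer luminal or more fibroblast cells in the T176 values of Gstt3, Mgst1, Mgst2, Gstm2 and Sult6b1 was not tested.

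Set against the reference, 33 of 46 members had a mean log2 ratio below 0, where 48.9% of all genes did. Of the members 7 lay at least 2-fold below the reference in all 12 tumours (Gsta3, Mgst3, Sult1a1, Sult1b1, Sult1d1, Ugt2b37 and Ugt2b38), against 4.71% of all genes, and 0 lay at least 2-fold above it, against 0.124%. Sult1b1, which sulfates phenols and thyroid hormone, averaged -4.52 ± 0.38 (SD, n = 12). Sult1d1, which in mouse sulfates catecholamines, averaged -3.30 ± 0.52, and the glucuronosyltransferase Ugt2b38 averaged -2.69 ± 0.47. Ugt2b37, named after its values were seen, averaged -2.15 over 3 probes whose means lay between -2.66 and -1.82. None of these last 4 passed the F-test between tumours, though Sult1d1 and Ugt2b38 did with the term for the second arrays (adjusted p = 0.0103 and 0.046), and probes of the Ugt2b paralogs on chromosome 5 may share signal. A dye effect would be part of these ratios, and the make-up of the reference is unknown.

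The other 31 members did not pass the F-test, with adjusted p between 0.0878 and 0.995 and SDs over tumours between 0.192 and 0.731 (median 0.345). At an unadjusted F-test p under 0.05 the count of members was 19, but the share of all genes at that cut-off was not counted, so nothing is read from it. The fit with the term for the second arrays called 43.0% of all genes, a share that includes genes called without the term. The like share among genes not called without it was not counted. In that fit 11 of the 31 were called. They were Gstm3, Gstm5, Gstp1, Gstt1, Sult1c1, Sult1d1, Sult2b1, Sult3a1, Sult6b1, Ugt2a1 and Ugt2b38, those outside the naming rule being named after their values were seen. A p above the threshold does not show that a gene is alike in all tumours.

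Genes that supply, accompany or regulate these enzymes were taken from a list of 61, of which 55 were measured, and 24 of the 55 were called between tumours, against 18.4% of all genes. Without T176 the count was 21, against 14.9% of all genes, with Nfe2l2, Gpx3 and Ugdh lost. The called genes were 7 of 14 Nrf2-related genes, 4 of 7 of glutathione metabolism, 2 of 6 that supply sulfate and glucuronate donors, 5 of 10 other phase II enzymes, 1 of 2 deconjugating enzymes, 2 of 5 phase I enzymes, 1 of 5 receptors and 2 of 6 efflux pumps.

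Ahr, the dioxin receptor, was lowest in T176 (-2.54) and T172 (-1.27) and highest in T135 (3.10), with an adjusted F-test p of 0.000223. Cyp2f2, a P450 enzyme known in mouse lung for activating naphthalene, had 1.02 in T55 and 0.44 in T2134, against -4.85 to -0.84 in the other 10 (adjusted p = 0.000289). Abcg2, an efflux pump for conjugates and drugs, had its top value in T172 (1.96), where Sult1e1 was highest, and its lowest in T2023 (-3.24; adjusted p = 0.000668). T172 was also highest for Gpx2, an epithelial glutathione peroxidase (4.19, against -1.10 to 3.65; adjusted p = 0.000315), and for Me1, which supplies NADPH (3.15, against -1.48 to 3.06; adjusted p = 0.00239). In both genes T284 lay close behind, at 3.65 and 3.06. T176 was far above the others for Gpx3, the secreted peroxidase (3.12, against -2.77 to -0.44; adjusted p = 0.00071), and for Ugdh, which makes UDP-glucuronate (3.02, against -1.86 to -0.05; adjusted p = 0.00237).

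Nqo1, the quinone reductase used as a readout of Nrf2, had 2.77 in T221, 2.11 in T284, 1.58 in T2023, 1.41 in T920, 0.65 in T172, 0.64 in T135, -0.55 in T2134, -0.56 in T176, -0.68 in T372, -0.93 in T646, -1.0 in T55 and -1.54 in T160. It passed the limma F-test (adjusted p = 0.00147). T221, the highest, also had the highest Gsta1 and Gsta4, while T284, the next, had low Gsta4 and the lowest Gsto1. Nfe2l2 itself, named after its values were seen, ranged from -0.17 in T176 to 2.66 in T221 (adjusted p = 0.0368).

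Nqo1 was set against 6 glutathione S-transferase genes over the 12 tumours, with two-sided permutation tests of 100000 resamples adjusted over the 6 relations. Pearson's r was 0.222 for Gsta4, 0.185 for Gsto1, 0.253 for Gstm1, 0.255 for Gstt1, -0.132 for Mgst1 and -0.0636 for Gstp1 (permutation test, adjusted p = 0.842 for Gstp1 and 0.841 for the other 5). Spearman's rho was 0.294 for Gsta4, -0.00699 for Gsto1, 0.35 for Gstm1, 0.231 for Gstt1, -0.413 for Mgst1 and 0 for Gstp1 (permutation test, adjusted p = 1 for Gsto1 and Gstp1 and 0.705 for the other 4). None of the 6 passed. Gsta4 and Gsto1 shared their 5 lowest tumours. A split into these 5 and the other 7 would be picked on the Gsto1 values themselves, so no relation is read within either part.

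Without T284 and T221, the tumours farthest from the median of Nqo1, r was 0.0568 for Gsta4, 0.106 for Gsto1, 0.125 for Gstm1, 0.19 for Gstt1, -0.0993 for Mgst1 and 0.408 for Gstp1. Without T176, r was -0.493 and rho -0.555 for Mgst1 (permutation test, adjusted p = 0.722 and 0.482), and r was 0.0715 for Gstp1. The sign for Gstp1 thus turned under both omissions.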

How the data were processed

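Total RNA of 12 tumours was measured on 14 two-colour arrays, per the labels with the tumour in Cy5 and the common reference in Cy3. The authors deposited 1 table of log ratios, read as log2 of tumour over reference, with the direction following from the dyes. The values span -9.19 to 7.42, from which base 2 was inferred. Array medians lay between 0 and 0.018, and pairs of arrays correlated at 0.465 to 0.898, none of them negatively. How the arrays were scanned, background-corrected, normalized and filtered is not given in the sources used here. Arrays held 22501 to 22566 of 22575 probes (0.172% of values missing). Ratios carry no signal strength, so dim probes cannot be recognised, and precision is limited by the number of arrays.

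Probes were named from the platform annotation, which can be old: 18658 had 1 symbol, 30 several (none of them a member) and 3887 none. Symbols were updated through RefSeq (GRCm38.p6) for 18445 probes by Entrez identifier and 24 by accession, and 189 kept theirs. Probes of a gene were averaged, and a gene needed values on 12 or more arrays, including both of T172 or both of T284. No normalization was added. limma 3.58.1 in R 4.3.3 was fitted to 16877 genes: a moderated F-test over 12 tumours (prior SD 0.313, 7.27 prior degrees of freedom), and each tumour against the mean of the other 11, with the 2 arrays of a tumour averaged and the lone tumour assumed to vary like the rest. P-values were adjusted after Benjamini-Hochberg over all genes, within each tumour for the second test, and called under 0.05. Relations used Python 3.11.15 with scipy 1.17.1, numpy 2.4.6 and pandas 2.3.3. The steps were tested on simulated data.

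The genes, the pathway and marker lists and the motifs were chosen with earlier results of these data known. Genes named are the members called in either test, the 3 with the largest SD over tumours in each family, the 5 highest and 5 lowest mean ratios, any member whose probes differ in mean by more than 1, the 8 called pathway genes with the largest SD, and the genes of the relations; others are marked as named after their values were seen. Markers not measured were Csf1r and Serpina1a. The alternatives tried were a robust prior, quantile and median absolute deviation scaling, 1 probe per gene, complete genes only, a term for the second array, a threshold of 0.01, and arrays or tumours left out.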

Additional observations from a re-analysis of the deposited data

How the results depend on the processing

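Calls of members between tumours numbered 15 with a robust prior, with 1 probe per gene and with complete genes only, 17 after quantile normalization and 18 with arrays scaled to the same median absolute deviation, where all genes had 3086, 3037, 3158, 4192 and 4325 calls. With a term for the second array (the replicate block) 26 members and 7262 genes, or 43.0%, were called, and all 15 members were kept. The labels give these arrays no numbers, only 2 tumours have a second array, and the deviations of T172 and T284 correlated at 0.324 over 16474 genes, so the block is not treated as a pairing. At an adjusted p under 0.01 the calls were 9 members and 1590 genes. With 1 array or 1 tumour left out, 13 to 16 members and 2522 to 4087 genes were called. Beside the losses given with each member, Gpx3 and Ugdh were lost without T176 (adjusted p = 0.068 and 0.204). Gstm3 was called after quantile normalization (0.0311), with the scaled arrays, with the block, and with either array of T172 or of T284, or either tumour, left out. Over 812 combinations of a named gene and an alternative, 786 stayed on the same side of the threshold.

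For 1 tumour against 11, 2 members and 397 genes were called at 0.01, and 2 members and 159 genes without T176. With 1 array of T172 or of T284 left out, 5 members and 742 to 782 genes were called. The other alternatives gave 5 or 6 members and 784 to 951 genes, with Gstm2 in T176 added under both scalings. The relation of Nqo1 with Gstp1 turned to 0.0715 without T176 and to 0.408 without T284 and T221. Under both scalings 33 members stayed below the reference on average, and 7 (quantile) and 8 (scaled arrays, Sult1c2 added) lay at least 2-fold below it in all tumours. The spread within a tumour rests on the second arrays of 2 tumours, and these deviated together. The count of pathway genes without T176 was an alternative chosen after seeing the data.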

Other observations

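One probe, annotated as C730007P19Rik, carries an accession that RefSeq names Sult2a2, a hydroxysteroid sulfotransferase, and was left out because the rule uses the annotated symbol. Its log2 ratio averaged -2.65 ± 0.36 (SD, n = 12 tumours), from -3.29 in T135 to -2.26 in T55, and it did not pass the limma F-test (adjusted p = 0.461). It was at least 2-fold below the reference in all 12 tumours, as were 7 of the members.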
